A study of Mus musculus with 12 samples.

Results

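The 3 wild-type libraries of an RNA sequencing study of the mouse organ of Corti are described here, out of 12 libraries in 4 genotypes, and they were taken by the genotype label alone. The organ of Corti is the sensory epithelium of the cochlea, and it was collected at postnatal day 21, when mice hear, after removal of the stria vascularis and of the modiolus, the bony core that holds the auditory neurons. The wild-type mice carried neither of the clarin mutations of the study and came from separate breedings rather than from litters of the mutants. The 3 libraries are labelled as replicates of one group, but the number of mice behind a library is not given in the sources used here, so the spread reported is that between these libraries. Polyadenylated RNA was sequenced as paired reads of 100 bases in strand-specific libraries, and 35978049, 37060672 and 41049302 counts fell on genes in replicates 1, 2 and 3. Wherever 3 values follow a gene below, they belong to replicates 1, 2 and 3 in that order. Levels are in CPM, the counts of a gene divided by the counts on all genes of its library in units of 1000000, which is a share of the counts. A ranking or sum in CPM therefore orders shares of the counts, in which long transcripts weigh more, and levels of transcripts are set against each other after division by the exon length in kilobases (CPM per kb).

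Sound reaches the organ of Corti as a vibration that bends the stereocilia of its hair cells and opens mechanotransduction channels at their tips. Inner hair cells pass the signal to the neurons of the spiral ganglion at ribbon synapses, and outer hair cells amplify the vibration with the motor protein prestin. Supporting cells (pillar, Deiters and phalangeal cells) hold them in place and clear potassium and glutamate, and the tectorial membrane above them is an acellular matrix. In a bulk sample, fewer cells of a type and less RNA per cell cannot be told apart.

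Of 55348 genes in the table, 15370 (27.8%) reached a mean of 1 CPM, 10853 reached 10 CPM, 2270 reached 100 CPM and 77 reached 1000 CPM. Of the genes at or above 1 CPM, 13725 were protein-coding. The 10 most abundant genes held 6.34%, 6.63% and 6.32% of the counts, the 100 most abundant 19.7%, 20.1% and 20.2%, and the 1000 most abundant 46.8%, 47.2% and 47.6%. The 3 libraries were nearly alike in this concentration, and 1169 genes together held 50% of the counts. A gene without a count in a library could still be present at up to 0.0834, 0.0809 or 0.0731 CPM, the level of 3 counts, which covers counting error only.

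Ranked by CPM, which is the share of the counts, 7 of the 20 highest genes were pseudogenes in the nuclear genome that copy mitochondrial transcripts. Gm13340 stood first at 9862, 10354 and 10037 CPM and matched mt-Co1, a subunit of cytochrome oxidase, over its whole length at 97.6% identity. Gm10925 stood second at 7926, 8460.4 and 8273 CPM and matched mt-Atp6, a subunit of ATP synthase, without a mismatch over 678 bases. Among the 20 highest genes by CPM or per kb there were 11 such copies, with an identity of 92.9% to 100%, which together took 4.29%, 4.58% and 4.46% of the counts. Of these, 7 lie in the block of chromosome 1 between 24611535 and 24616197 of GRCm38. Reads from the mitochondrial transcript and from its nuclear copy differ at few or no bases, so these levels are uncertain, and the part that mitochondrial transcripts had in them was not tested. To show how close the copies are, the first 90 aligned bases of 3 pairs follow, with the bases that differ within a pair in capitals, 5′ to 3′ on the strand of the gene.
Gm13340 (GRCm38 chr2:22589558-22589647, minus strand): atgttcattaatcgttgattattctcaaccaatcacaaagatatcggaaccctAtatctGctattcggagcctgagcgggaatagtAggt
mt-Co1 (GRCm38 chrM:5328-5417, plus strand): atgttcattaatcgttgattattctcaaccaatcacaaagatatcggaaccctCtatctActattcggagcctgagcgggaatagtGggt
Gm11410 (GRCm38 chr4:80003990-80004079, plus strand): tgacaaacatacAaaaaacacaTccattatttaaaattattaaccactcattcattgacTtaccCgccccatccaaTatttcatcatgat
mt-Cytb (GRCm38 chrM:14146-14235, plus strand): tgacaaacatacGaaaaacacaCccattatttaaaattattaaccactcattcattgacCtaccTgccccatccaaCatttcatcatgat
Gm10925 (GRCm38 chr1:24614562-24614651, minus strand): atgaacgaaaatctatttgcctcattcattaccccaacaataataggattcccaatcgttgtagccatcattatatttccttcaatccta
mt-Atp6 (GRCm38 chrM:7927-8016, plus strand): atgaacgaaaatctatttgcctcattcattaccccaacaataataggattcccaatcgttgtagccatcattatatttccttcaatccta
The pair of Gm13340 differed at 3 of these 90 bases, the pair of Gm11410 at 5 and the pair of Gm10925 at 0.

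Among protein-coding genes, genes of lipid carriage, myelin and matrix led the ranking. Ptgds (prostaglandin D synthase, chromosome 2, 25466709 to 25470046, minus strand of GRCm38) was first at 8312, 8841 and 6901 CPM, and its level was lowest in replicate 3. Mbp, a myelin protein of the central and the peripheral nervous system (chromosome 18, 82475146 to 82585637, plus strand), was at 5750.1, 6471 and 4939 CPM and was highest in replicate 2. Coch, the gene of cochlin, a matrix protein of cochlear fibrocytes (chromosome 12, 51593341 to 51605771, plus strand), reached 5071, 4671 and 6043 CPM and was highest in replicate 3. Apod, a lipid carrier, was at 3486, 3376 and 3871 CPM, and Sparcl1, a matrix glycoprotein, at 3519.9, 3525 and 3621 CPM. Fth1, the ferritin heavy chain, was at 2881, 2899 and 2843 CPM and Map1a, a protein of microtubules, at 2698, 2747 and 2801 CPM. Of the 20 highest protein-coding genes, 16 overlapped the next gene in the order over the 3 libraries, so most places in this ranking are not separated by the spread.

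Division by exon length moved short transcripts up. Per kb, the first protein-coding gene was Ptgds (4862 ± 608 CPM per kb, mean ± SD, n = 3), and high levels were also those of Coch (1755 ± 235), Calb2 (1575 ± 103), Apod (1388 ± 101), Sparcl1 (1211 ± 19.3) and Spp1 (1146 ± 63.8). Ptgds lay apart from the next gene in all libraries, while the ranges of Coch and Calb2 overlapped. Calb2 encodes calretinin, a calcium buffer of inner hair cells and auditory neurons, and Spp1 encodes osteopontin. Ceacam16, a tectorial membrane protein made by the organ of Corti itself, reached 807 ± 55.2 CPM per kb, within the range of S100b (780.5 ± 68.7), a calcium-binding protein of glia and supporting cells. The short neuronal RNA Bc1 reached 2914 ± 437 CPM per kb. Gm23935, annotated as a miRNA of 57 bases, stood at 4091 ± 747 CPM per kb, a level that rests on little sequence.

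**Figure D1:**
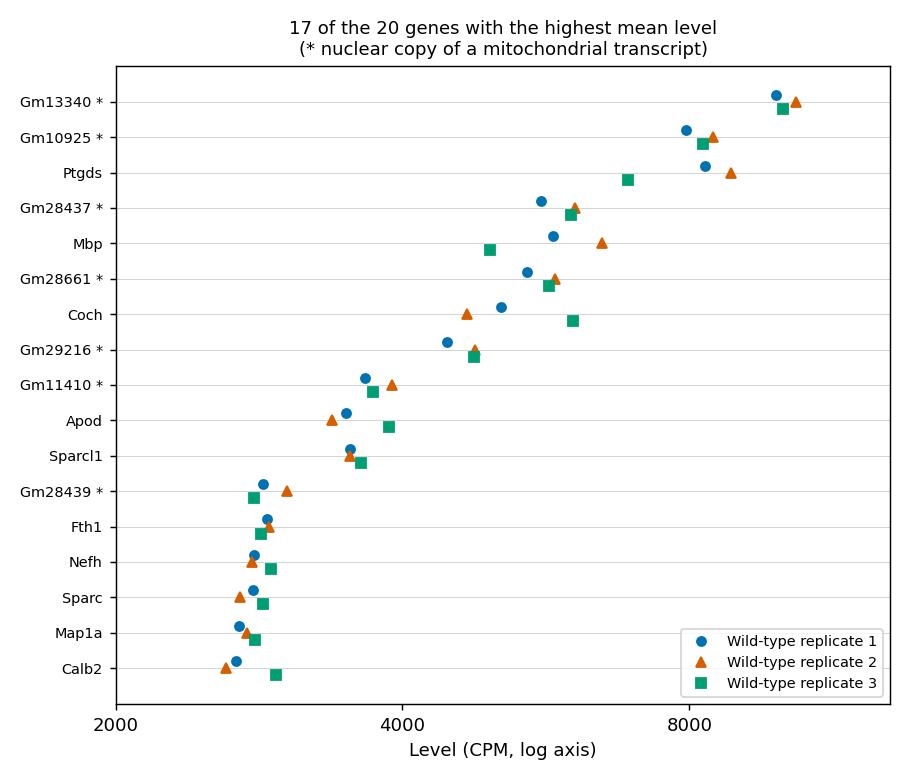
Level of 17 of the 20 genes with the highest mean CPM (log axis) in the 3 wild-type libraries, 1 symbol per library, with nuclear copies of mitochondrial transcripts marked by an asterisk. The ranges of most genes overlap with that of a neighbour, and Ptgds, Mbp and Coch show the widest spread between libraries among the genes plotted.

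To see which cells the tissue held, 34 lists of marker genes were followed. Of 380 listed genes in the table, 344 (90.5%) reached 1 CPM, against 27.8% of all genes and 13725 of 21543 protein-coding genes. As shares of the counts, the 20 genes of Schwann cells and myelin took 2.52, 2.56 and 2.42%, the 20 neuronal genes 1.48, 1.51 and 1.59%, and the 11 genes of spiral ligament and limbus fibrocytes 0.957, 0.885 and 1.11%. The 12 hair cell identity genes took 0.358, 0.355 and 0.395% and the 20 supporting cell genes 0.302, 0.289 and 0.291%. The myelin and neuronal lists thus took more of the counts than the hair cell identity and supporting cell lists in each library of a tissue from which the modiolus had been removed, and what share of this came from nerve fibres, from glia or from neuron cell bodies was not tested.

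**Figure D2:**
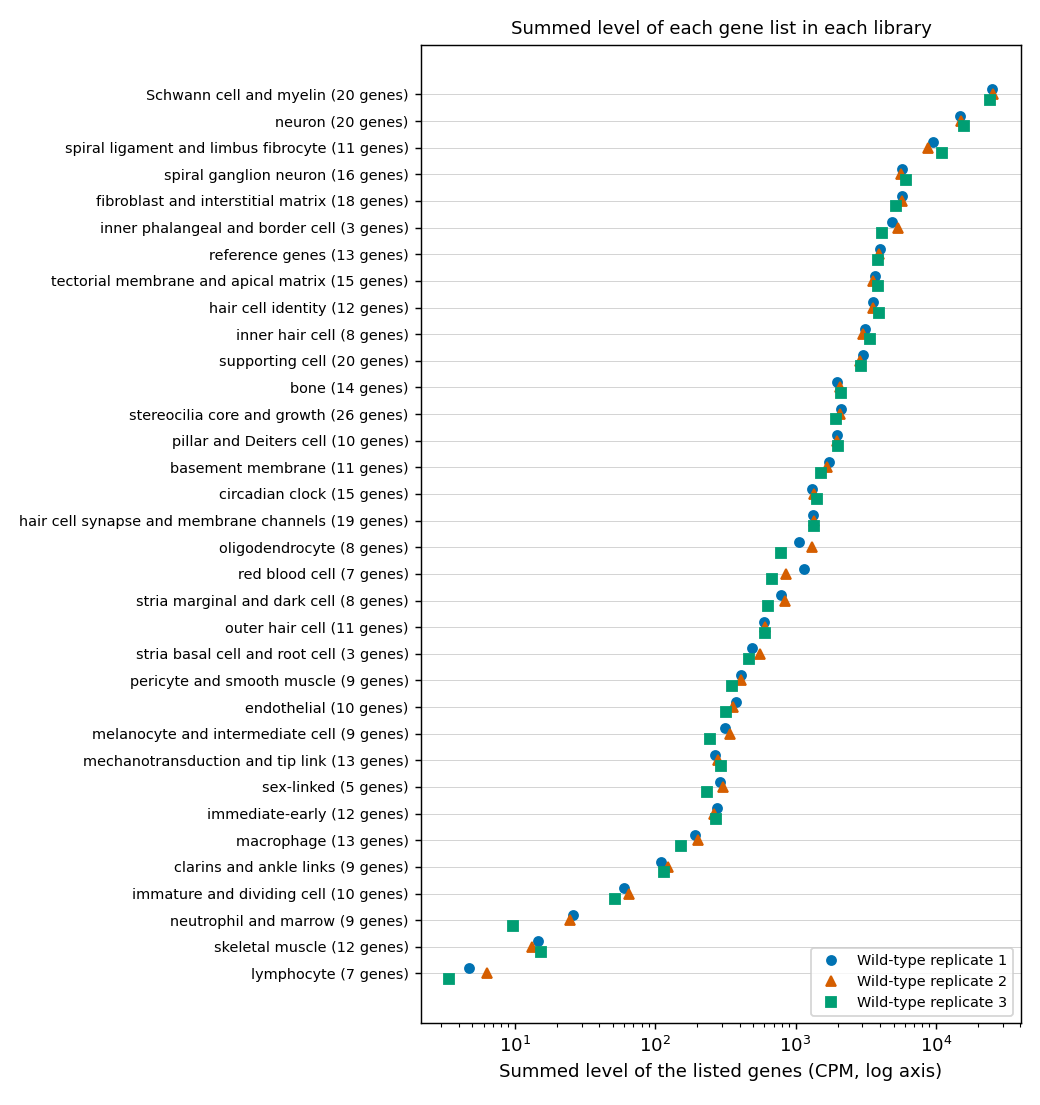
Summed level of the members of each of the 34 gene lists (CPM, log axis) in each wild-type library, with the number of members in the table. Lists of glia, neurons and fibrocytes stand at the top, those of skeletal muscle and lymphocytes at the bottom, and the spread between libraries is wide in lists such as oligodendrocyte, red blood cell and neutrophil genes.

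RNA of hair cells was present in each library. Of the 12 identity genes, 11 reached 1 CPM, and the median of the list was 4.67 CPM per kb against 5.79 for all genes at or above 1 CPM. Myo7a, a motor of the hair bundle, was at 42.9, 46.7 and 49.4 CPM and Myo6, which anchors the bundle at its base, at 179, 180.2 and 182 CPM. Myo6 hardly varied, and Myo7a was highest in replicate 3. Pou4f3 and Gfi1, transcription factors that keep hair cells alive, were at 14.5, 13.7 and 16.0 CPM and 5.61, 8.5 and 6.94 CPM. The 2 genes at the top of the list, Calb2 and Pvalb, are shared with auditory neurons, and Calb2 alone made up 74.3% of the summed level of 3694 CPM, which was 949 CPM without it. Atoh1, the factor that starts hair cell development, had 0, 3 and 1 counts, no more than 3 in any library. Lhx3 (1.36, 2.51 and 1.51 CPM) and Barhl1 (1.64, 2.40 and 2.22 CPM), transcription factors of hair cells, lay near the threshold.

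Inner and outer hair cell genes were both measured. Otof, the calcium sensor of the inner hair cell synapse (chromosome 5, 30367062 to 30461932, minus strand), was at 87.1, 98.8 and 106 CPM and Slc17a8, the vesicular glutamate transporter that loads its vesicles, at 27.0, 27.5 and 31.5 CPM. Both were highest in replicate 3. Tbx2, a factor that sets inner hair cell fate, was at 84.3, 81.8 and 83.2 CPM and Cabp2, a calcium-binding regulator of the synaptic channel, at 10.5, 12 and 10.6 CPM. Of genes with less known roles, Slc7a14 was at 139, 135 and 136 CPM and Atp2a3, a calcium pump of internal stores, at 81.5, 80.7 and 89.1 CPM. Fgf8, an early inner hair cell signal, had 1, 0 and 3 counts.

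Of the 11 outer hair cell genes, 11 reached 1 CPM. Ocm, the gene of oncomodulin, a calcium buffer of outer hair cells (chromosome 5, 144019804 to 144026670, minus strand), was at 62.1, 61.6 and 73.3 CPM, which is 89.6 ± 9.07 CPM per kb. Slc26a5, which encodes prestin (chromosome 5, 21810655 to 21865604, minus strand), was at 16.5, 16.9 and 17.2 CPM, with 1.05 times between its highest and lowest library. Lbh, a transcriptional regulator, was at 63.9, 62.1 and 59.2 CPM. Strc, whose product links stereocilia to each other and to the tectorial membrane, was at 20.2, 20.3 and 25.2 CPM. The efferent receptor subunits Chrna9 (3.81, 4.24 and 3.85 CPM) and Chrna10 (15.1, 16.4 and 16.1 CPM) were steady, and per kb Chrna10 (6.04) stood above Chrna9 (1.31). Kcnn2, the potassium channel that acts with this receptor, was at 28.9, 33.3 and 32.6 CPM. Of the 9 members at or above 5 CPM, 8 stayed within 1.25 times, where the 90th percentile over all genes at that level was 1.26.

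The transduction machinery was represented with 11 of 13 genes at or above 1 CPM. Tmc1, a pore subunit of the mature channel (chromosome 19, 20783458 to 20954202, minus strand), was at 10.8, 13.2 and 12.3 CPM, whereas Tmc2, which precedes it in development, was at 0.0834, 0.135 and 0.0244 CPM. Cib2, a calcium-binding partner of the channel, was the highest of the list at 89.7, 86.6 and 97.5 CPM and 63.7 CPM per kb. Lhfpl5 (16.6, 16.5 and 21.5 CPM) and Tmie (7.12, 7.39 and 6.33 CPM), further parts of the complex, and Tomt (8.37, 9.15 and 9.48 CPM), which is needed to deliver it, were also measured. Lhfpl5 was highest in replicate 3. The tip link cadherins Cdh23 and Pcdh15 were at 32.7, 32.4 and 34.9 CPM and 11.1, 11.3 and 11.8 CPM, and their ranges per kb (1.97 ± 0.0808 and 0.478 ± 0.0159) did not overlap. The scaffold Ush1c was at 36.8, 38.9 and 39.3 CPM. Cib3, which serves vestibular hair cells, was at 0.167, 1.46 and 0.171 CPM, with most of its counts (6, 54 and 7) in replicate 2.

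Of the 26 stereocilia genes, 24 reached 1 CPM. None of the 20 at or above 5 CPM ranged over 2 times, against 0.800% of all genes at that level. The cytoplasmic actins Actb (988, 926 and 851 CPM) and Actg1 (329, 306 and 299 CPM), which all cells use, led with 344 and 117 CPM per kb. They encode near-identical proteins, and whether reads were shared between the 2 genes was not tested. Among plastins, which bundle actin, Pls3 (22.9 ± 0.548 CPM per kb) was above Pls1 (6.11 ± 0.104) and Lcp1 (5.19 ± 0.148). Fscn1 (30.6 CPM per kb) was above Fscn2 (4.75), the fascin that maintains stereocilia, and Fscn2 was highest in replicate 3 at 8.31, 9.58 and 12.2 CPM. Espn, which lengthens actin bundles, was at 22.3, 27.0 and 24.6 CPM and its relative Espnl at 1.17, 3.59 and 1.1 CPM, with replicate 2 at 3.27 times the lowest library. Xirp2, an actin-binding protein of hair bundles, was likewise highest in replicate 2, at 2.06, 4.59 and 2.39 CPM. Of the other unconventional myosins, Myo1c was at 60.2, 58.1 and 53.4 CPM, Myo15 at 25.0, 32.7 and 28.2 CPM, Myo3a at 1.56, 1.83 and 2.19 CPM and Myo3b at 0.556, 1.35 and 0.390 CPM. Myo1h was at 3.31, 4.80 and 3.26 CPM with 43.2 CPM on the opposite strand. Eps8l2, which elongates stereocilia, was at 48.7, 50.6 and 54.2 CPM and had 81.6 CPM on the opposite strand. Grxcr1 and Myo3b were the list members under 1 CPM.

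The clarins and the ankle link genes had a median of 2.82 CPM per kb and a summed share of 0.0110, 0.0123 and 0.0115% of the counts. Clrn1 (chromosome 3, 58844028 to 58885340, minus strand) was at 24.7, 23.5 and 27.5 CPM or 6.54 ± 0.534 CPM per kb, and Clrn2 (chromosome 5, 45453751 to 45464149, plus strand) at 3.00, 1.86 and 3.12 CPM or 2.82 ± 0.735 CPM per kb. Both were highest in replicate 3 and lowest in replicate 2, and the levels per kb of the pair did not overlap. Clrn3 had 0 counts in each library. Whrn, a scaffold at stereocilia tips and at the ankle links, was at 26.1, 32.2 and 23.8 CPM and Pdzd7, which organizes the ankle link complex, at 16.1, 17.5 and 17.6 CPM, with 15.9 CPM on the strand opposite to Pdzd7. Adgrv1, the giant receptor of the ankle links, was at 3.28, 2.97 and 2.66 CPM. Ptprq, a shaft connector phosphatase, was at 14.7, 21.9 and 13 CPM and was highest in replicate 2.

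At the synapse and the hair cell membrane, 19 of 19 genes reached 1 CPM. Cacna1d, the pore of the inner hair cell calcium channel, was at 57.3, 54.5 and 54.4 CPM, below Cacna1a of neurons (110.0, 112 and 113 CPM) also per kb (4.39 against 9.78). Cacna1c and Cacna1b stood at 0.763 and 1.1 CPM per kb. Ctbp2, which encodes the ribbon protein RIBEYE as well as a nuclear co-repressor, was at 26.8, 26.1 and 26.3 CPM, Bsn at 66.3, 64.8 and 60.7 CPM and Pclo at 63.2, 65.9 and 59.4 CPM, both active zone scaffolds. Ctbp2, Bsn and Pclo varied by no more than 1.11 times between libraries. Among plasma membrane calcium pumps the order per kb was Atp2b2, the pump of stereocilia, at 26.9 ± 0.378, Atp2b3 at 21.5 ± 1.00, Atp2b1 at 8.59 ± 0.282 and Atp2b4 at 1.05 ± 0.255 CPM per kb, with no overlap between neighbours. Of the ferlins, Otof (12.3 CPM per kb) stood above Dysf (6.78) and Myof (1.54). Kcnma1, the fast potassium channel of inner hair cells, was at 79.2, 77.0 and 84.1 CPM.

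KCNQ channels differed from one another both in level and in spread. Kcnq3, a neuronal subunit, was at 54.5, 58.4 and 49.8 CPM, within 1.17 times between libraries. Kcnq1, which with Kcne1 secretes potassium in the stria vascularis, was at 9.28, 10.9 and 5.24 CPM. Kcnq5 was at 5.56, 10.0 and 1.1 CPM, a ratio of 9.16 and the second widest among genes whose mean reached 5 CPM. Kcnq1, Kcnq3 and Kcnq5 were each highest in replicate 2 and lowest in replicate 3. Per kb, Kcnq3 (3.69 ± 0.292) stood above Kcnq1 (2.07 ± 0.715) and Kcnq5 (0.724 ± 0.581).

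Supporting cell genes were abundant, with a median of 15.2 CPM per kb against 5.79 for all genes at or above 1 CPM. Of 20 genes, 19 reached 1 CPM. None of the 19 at or above 5 CPM had a ratio of 2 between libraries, against 0.800% of all genes at that level. Their median ratio was 1.13, against 1.09 for all genes at that level. Among connexins, which form the gap junctions that carry potassium between supporting cells, the order per kb was Gjb2 (175 ± 16.5), Gjb6 (135 ± 4.93), Gjb1 of myelin (40.8 ± 2.00) and Gja1 (7.18 ± 2.47). Gjb2 was at 464, 385 and 417 CPM and Gjb6 at 373, 361 and 347 CPM. Gja1 varied more, at 79.1, 95.8 and 46.0 CPM. Sox2, a factor of supporting cells and their progenitors, was at 33.0, 34.2 and 32.7 CPM, and Cdkn1b, which holds supporting cells out of the cell cycle, at 426, 405 and 454 CPM. S100a1 (410.3, 389 and 445 CPM), Kcnj10 (219, 235 and 187 CPM) and Aqp4 (192, 207 and 130.5 CPM), the last a water channel, are also found in other glia-like cells, and Aqp4 was lowest in replicate 3. Hes5, a Notch target of the immature epithelium, was the member under 1 CPM at 0.862, 0.944 and 0.658 CPM.

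Genes of pillar and Deiters cells were led by S100b at 1117, 1083 and 1274 CPM and Gfap at 389, 440.1 and 259 CPM, both of which glia also make. Ngfr, the low-affinity neurotrophin receptor, was at 148, 146 and 152 CPM, Fgfr3, a receptor of pillar and Deiters cells, at 58.1, 67.6 and 67.0 CPM and Lgr5, a receptor found in Deiters cells and in progenitors, at 31.3, 28.4 and 32.3 CPM. Gfap and Ednrb (58.7, 59.1 and 44.8 CPM) were lowest in replicate 3, while Ngfr, Prox1 (101, 99.6 and 105 CPM) and Lgr5 stayed within 1.14 times. Of the genes of inner phalangeal and border cells, Slc1a3, the glutamate transporter around inner hair cells, was at 122, 126 and 116 CPM and Fabp7 at 31.2, 29.0 and 23.0 CPM.

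The matrix of the tectorial membrane was measured mainly through Ceacam16 and collagens. Ceacam16 (chromosome 7, 19852097 to 19861299, minus strand) was at 1289, 1248 and 1420.4 CPM, Col11a2 at 871, 882 and 983 CPM, Col2a1 at 584, 517 and 485 CPM, Col9a3 at 193, 186 and 205 CPM and Col9a2 at 189, 187 and 195 CPM. Of the 2 tectorins, Tectb was at 24.2, 27.1 and 27.9 CPM (6.91 ± 0.516 per kb) and Tecta at 2.86, 4.51 and 1.66 CPM (0.406 ± 0.193 per kb). The levels of the tectorins per kb did not overlap, and Tecta ranged over 2.72 times with replicate 2 highest. Otog (106, 126 and 115 CPM), Otogl (52.7, 49.7 and 57.4 CPM) and Otoa (137, 126 and 156 CPM) encode glycoproteins that build or attach the membrane. Zpld1 and Oc90, genes of vestibular matrices, were under 1 CPM, and Otol1, a collagen-like otolith protein, was at 3.17, 6.37 and 3.26 CPM. The 11 members at or above 5 CPM stayed within 1.23 times, where the 90th percentile over all genes at that level was 1.26. Their median ratio was 1.14, against 1.09 for all genes at that level.

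**Figure D3:**
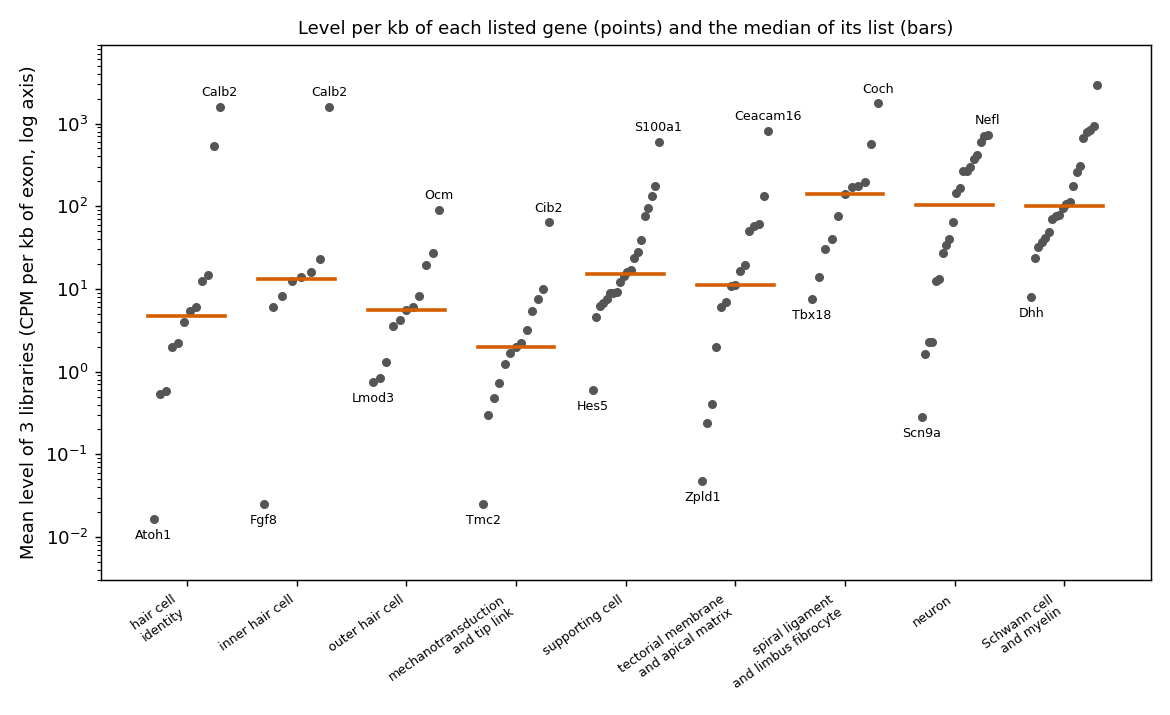
Mean level of each member of 9 gene lists (points, CPM per kb on a log axis) with the median of the list (bar), over the 3 wild-type libraries. Members of one list range over several orders of magnitude, and the medians of the fibrocyte, neuron and myelin lists stand above those of the hair cell lists.

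Fibrocyte genes gave the highest median per kb of all lists, 141 CPM per kb of exon. With the longest transcript as gene length the neuronal list stood above them, at 178 against 170 CPM per kb. Beside Coch, Otos (otospiralin) was at 1619.8, 1433 and 2123 CPM and Epyc (epiphycan) at 496, 459.5 and 557 CPM. All 3 were highest in replicate 3 and lowest in replicate 2. Slc12a2, a sodium-potassium-chloride cotransporter, was at 429, 449.7 and 424 CPM and the transcription factor Pou3f4 of otic mesenchyme at 45.1, 37.7 and 40.8 CPM. The 18 genes of fibroblasts and interstitial matrix behaved otherwise: Sparc (2785, 2704 and 2854 CPM) and Col1a2 (861, 867 and 768 CPM) were steady, but Col1a1 (195, 250.2 and 109.8 CPM), Col6a1 (55.7, 68.9 and 27.9 CPM) and Col6a2 (60.8, 73.3 and 31.0 CPM) ranged over 2.28, 2.47 and 2.36 times, lowest in replicate 3. Dcn (515, 502 and 417 CPM) and Fn1 (293, 339 and 175 CPM) were also lowest there. The basement membrane genes, from Hspg2 (343, 323 and 299 CPM) and Lamc1 (280.3, 281 and 240.2 CPM) to Col4a3 (14.6, 16.5 and 13.5 CPM), stayed within 1.22 times each. Over all genes at or above 5 CPM the 90th percentile of this ratio was 1.26.

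Neuronal genes had a median of 105 CPM per kb, and the median ratio between libraries was 1.09. Of the 20, 20 reached 1 CPM, and the neurofilaments Nefh (2794, 2780.1 and 2908 CPM), Nefl (2352, 2388 and 2569 CPM) and Nefm (2326, 2469.6 and 2462 CPM) led by share of the counts with Snap25, a vesicle fusion protein (2501, 2499 and 2697 CPM). Nefm also had 1248 CPM on the opposite strand. Syp, a synaptic vesicle protein, was at 730.1, 738 and 793 CPM. Gap43, a protein of growing axons, was at 4.14, 3.67 and 2.75 CPM. Syt1, the calcium sensor of most synapses, ranged over 3.94 times at 14, 21.5 and 5.46 CPM, and Prph, which marks type II auditory neurons, was at 6.09, 2.97 and 4.77 CPM with the lowest value in replicate 2.

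Among spiral ganglion genes, the vesicular glutamate transporters ordered per kb as Slc17a7 (149 ± 10.5), Slc17a6 (27.9 ± 0.210) and Slc17a8 of inner hair cells (6.07 ± 0.523), with no overlap. Lypd1 (778, 716 and 861 CPM), Calb1 (46.2, 65.3 and 26.8 CPM) and Runx1 (45.9, 44.7 and 45.9 CPM) mark subtypes of type I neurons, and Calb1, the only one of the 16 spiral ganglion genes to range over 2 times, was lowest in replicate 3. Pou4f1, a nuclear factor of the neurons whose RNA lies in their cell bodies, was at 40.4, 37.3 and 40.6 CPM and Gata3 at 92.2, 88.3 and 98.4 CPM. Ntrk2 and Ntrk3, receptors of the neurotrophins that sustain the ganglion, were at 239, 238 and 223 CPM and 176, 189.9 and 162 CPM. Kcna1, a potassium channel of axons, was at 337, 359 and 339.7 CPM. Of the AMPA receptor subunits, Gria4 (15.0 ± 0.822 CPM per kb) and Gria3 (10.6 ± 0.675) stood above Gria2 (3.98 ± 0.401) and Gria1 (1.96 ± 0.603), and Gria1 was the most variable at 12.1, 15.4 and 8.09 CPM. The calcium buffers of hair cells and neurons ordered per kb as Calb2 (1575), S100a1 (598), Pvalb (531), Ocm (89.6) and Calb1 (9.51), where S100a1 and Pvalb overlapped.

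The members of the Schwann cell and myelin list differed in their order over the libraries. Of the 20 genes, 20 reached 1 CPM, and 8 were highest in replicate 3. Of all genes at or above 5 CPM, 15.5% were highest there and lowest in replicate 1, and 21.6% highest there and lowest in replicate 2. In the list, 6 were highest in replicate 2 and lowest in replicate 3, against 18.5% of all genes at or above 5 CPM. The sum of the list, 25234, 25634 and 24178 CPM, was highest in replicate 2 and lowest in replicate 3. The peripheral myelin genes Pmp22 (2267, 2065 and 2337 CPM), Prx (975, 908 and 1038 CPM) and Egr2 (82.3, 68.2 and 88.6 CPM) were lowest in replicate 2 and highest in replicate 3. The 8 oligodendrocyte genes summed to 1051, 1303 and 794 CPM, and 7 of the 7 members at or above 5 CPM were highest in replicate 2 and lowest in replicate 3, an order that 18.5% of all genes at that level had. Mobp, an oligodendrocyte myelin protein, was at 741, 938 and 564 CPM, Mog, a surface protein of central myelin, at 104, 118 and 78.5 CPM and Olig1, a lineage factor, at 41.4, 55.9 and 30.3 CPM. Mbp, which both kinds of glia make, had the order of the oligodendrocyte genes. Oligodendrocytes belong to the central part of the auditory nerve, and their part in the level of Mbp was not tested.

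Genes of tissues next to the organ of Corti were present at levels that differed between libraries. The marginal cell genes of the stria vascularis Kcne1 (10.1, 11.5 and 3.26 CPM), Kcnq1 and Stra6 (22.2, 32.2 and 13.5 CPM) were at their lowest in replicate 3, and the marginal and dark cell list summed to 785, 844 and 639.8 CPM, with Atp1b2, a sodium pump subunit, at 290.5, 313 and 178 CPM, and of this sum Slc12a2, also a fibrocyte gene, made up 57.4%. Bsnd, a channel subunit of marginal cells, was under 1 CPM, with 20, 13 and 3 counts. In the melanocyte list, Dct, a pigment enzyme of intermediate cells, was at 44.1, 59.6 and 11.8 CPM and Tyr, which starts pigment synthesis, at 2.61, 2.86 and 0.755 CPM, while Tyrp1, Mlana and Oca2 were under 1 CPM. Cldn11, the tight junction protein of stria basal cells and of myelin, was at 278, 321 and 227 CPM, and Slc26a4, pendrin of root and spindle cells, at 58.9, 46.0 and 58.8 CPM. Kcne1, Kcnq1, Stra6, Dct and Tyr were each highest in replicate 2 and lowest in replicate 3.

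Bone, blood and muscle differed from each other. Spp1 made up 91.9% of the bone list and was steady at 1806, 1854 and 2008 CPM, but the osteoblast genes Bglap (5.64, 11.9 and 3.63 CPM), Bglap2 (6.75, 12.3 and 3.70 CPM), Ibsp (22.3, 37.4 and 12.6 CPM) and Alpl (33.3, 41 and 17.2 CPM) were lowest in replicate 3. Bglap and Bglap2 are near-identical copies, so that their division of reads is uncertain, as it is for Hba-a1 and Hba-a2 and for Hbb-bs and Hbb-bt. Haemoglobin genes were led by Hbb-bs at 654, 465 and 392 CPM and Hba-a1 at 338, 238 and 196 CPM, highest in replicate 1. Neutrophil and marrow genes summed to 26.2, 24.8 and 9.65 CPM, macrophage genes to 193, 204 and 152 CPM and lymphocyte genes to 4.75, 6.37 and 3.39 CPM. C1qa, a complement protein of macrophages, was at 28.3, 29.5 and 22.1 CPM. Of 12 skeletal muscle genes, 9 were under 1 CPM, and Myl1 was the highest at 8.59, 8.72 and 10.5 CPM. Endothelial genes, such as Emcn (65.3, 60.0 and 73.7 CPM) and Cldn5 (46.0, 40.0 and 37.4 CPM), and pericyte genes, such as Rgs5 (174, 166 and 159.7 CPM) and Pdgfrb (85.2, 89.8 and 71.2 CPM), summed to 375, 359.7 and 319 CPM and 410.5, 412 and 351 CPM.

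Lists that follow a state of the cells were measured as well. Immediate-early genes, which rise within minutes of a stimulus, had a median of 4.66 CPM per kb against 5.79 for all genes at or above 1 CPM, with Jun at 123, 120.2 and 125 CPM, Fos at 5.14, 4.61 and 3.53 CPM and Egr1 at 13.5, 16.3 and 11.3 CPM, and Fosb and Npas4 under 1 CPM. Of the 15 circadian clock genes, 10 were highest in replicate 3, while 15.5% of all genes at or above 5 CPM were highest there and lowest in replicate 1, and 21.6% highest there and lowest in replicate 2. Dbp, an output gene of the clock, was at 140.0, 149 and 171 CPM and Nr1d1, a repressor of it, at 99.3, 110.3 and 110.3 CPM, while Arntl, which peaks in antiphase, was at 14.6, 12.6 and 10.5 CPM and Npas2 at 7.84, 6.39 and 4.07 CPM. Nr1d1 had 31.6 CPM on the opposite strand. The time of day of collection is not given in the sources used here. Of genes of dividing and immature cells, Mki67, a proliferation antigen, was at 8.98, 14.3 and 4.21 CPM and Top2a at 3.47, 5.45 and 1.80 CPM, whereas Insm1 and Neurog1 were under 1 CPM. Common reference genes had a median ratio of 1.06, with Gapdh at 991, 997 and 1024 CPM, Rplp0 at 337, 332 and 327 CPM and Hprt at 90.9, 91.3 and 94.0 CPM, while Actb was lowest in replicate 3. Rpl13a was at 7.34, 7.96 and 8.62 CPM, and because processed copies of it share its sequence this level is uncertain.

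RNA of both sexes was present in each library. Xist, which is transcribed from the inactive X chromosome of females, was at 197, 224 and 109 CPM, and the Y-linked genes Ddx3y (48.5, 39.9 and 60.6 CPM), Eif2s3y (21.0, 18.1 and 29.3 CPM), Uty (12.6, 9.61 and 16.2 CPM) and Kdm5d (13.1, 12.8 and 17.0 CPM) were counted in each library as well. Xist was highest in replicate 2 and lowest in replicate 3, and the 4 Y-linked genes had the opposite order. The balance of the sexes thus moved with the order of the libraries seen in many variable genes, and with these 3 libraries the 2 cannot be told apart.

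The 3 libraries were close to each other for most genes. Over the 15370 genes at or above 1 CPM, the correlation of log2 levels across genes was 0.997 between replicates 1 and 2, 0.995 between replicates 1 and 3, and 0.993 between replicates 2 and 3, where genes are not independent points. Of 12378 genes whose mean reached 5 CPM, 55.4% varied by less than 1.1 times between the highest and lowest library, and the median ratio was 1.09. The variance was above counting noise: its median was 2.93 times that of counting alone, where counting noise by itself gives a median of 0.693 for 3 libraries. It was 1.30 for replicates 1 and 2, 2.29 for replicates 1 and 3, and 2.54 for replicates 2 and 3, against 0.455 for 2 libraries under counting noise alone. The pairs with replicate 3 thus differed more. Among genes at or above 1 CPM, 103 stood in replicate 3 at no more than 0.5 times each of the other libraries, against 2 in replicate 1 and 2 in replicate 2. The common biological coefficient of variation from edgeR, which is the spread beyond counting noise, was 8.0% for the 3 libraries and 4.88% without replicate 3, against 10.4% without replicate 1 and 8.27% without replicate 2.

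Among the same genes, 99 (0.800%) ranged over at least 2 times. Of these 99, 86 were highest in replicate 2 and lowest in replicate 3, an order that 18.5% of all 12378 genes had. Without replicate 3 the count was 8, without replicate 2 it was 37 and without replicate 1 it was 89. Tafa2, a secreted neuronal protein, had the widest range at 4.47, 11.4 and 0.244 CPM, with 10 counts in replicate 3. Gm1113 was at 1.81, 12.5 and 1.51 CPM, most of it in replicate 2. Penk, the precursor of enkephalin, was at 15.8, 23.0 and 5.92 CPM, Kcnc2, a fast potassium channel of neurons, at 15.7, 23.9 and 6.94 CPM and Dnase1, an endonuclease, at 88.4, 117 and 32.8 CPM. Hpse (10.1, 13 and 3.58 CPM), Shisa8 (19.3, 30.0 and 8.55 CPM), Sidt1 (5.5, 8.36 and 2.41 CPM), Gm43398 (5.48, 8.82 and 2.56 CPM) and Slc16a12 (5.92, 7.58 and 2.56 CPM) had the same order. Of the 296 listed genes at or above 5 CPM, 17 (5.74%) ranged over at least 2 times, against 0.800% of all genes at that level, and 16 of them were Dct, Syt1, Kcne1, Mki67, Slc4a1, Bglap2, Bglap, Ibsp, Col6a1, Calb1, Stra6, Alpl, Col6a2, Col1a1, Kcnq1 and Xist.

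The 13 exceptions to this order were few enough to name, and they were chosen after their values were seen. Fkbp5, a co-chaperone of steroid receptors (42.5, 105 and 59.6 CPM), Zbtb16, a transcription factor (15.5, 38.0 and 26.8 CPM), Plin4, a coat protein of lipid droplets (10.5, 30.6 and 14.7 CPM), Hif3a (2.89, 7.74 and 5.97 CPM) and Map3k6 (5.78, 13.2 and 7.72 CPM) were highest in replicate 2 and lowest in replicate 1. Slc4a10, a bicarbonate transporter (74.2, 73.6 and 31.6 CPM), Sfrp4, a Wnt antagonist (94.9, 88.8 and 46.8 CPM), Kl (14.8, 14.4 and 6.94 CPM), Hcar1 (18.4, 17.8 and 8.26 CPM) and Ranbp3l (34.1, 32.9 and 17.1 CPM) were lowest in replicate 3, with close values in replicates 1 and 2. Rsad2 (15.8, 10.6 and 7.16 CPM) and Usp18 (7.78, 3.97 and 3.80 CPM), which interferon induces, were highest in replicate 1. Bpifa1, a secreted protein of airway and middle ear epithelium, stood alone with its highest level in replicate 3, at 4.59, 8.55 and 15.7 CPM.

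**Figure D4:**
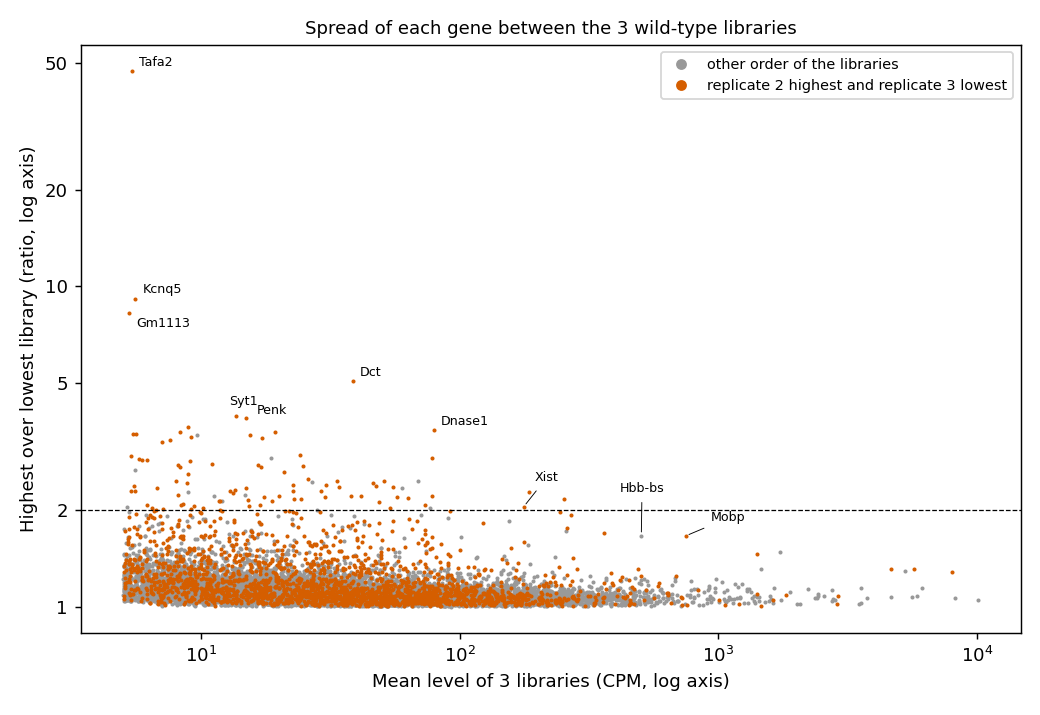
Ratio of the highest to the lowest wild-type library against the mean level (both log axes) for the 12378 genes whose mean reached 5 CPM, with a dashed line at a ratio of 2. Most genes lie close to 1, and the genes above the line are mainly those with replicate 2 highest and replicate 3 lowest (orange).

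Seen over the lists, replicate 3 was the lowest by the median of log2 of a library over the mean of the 3 in 14 of the 31 lists with at least 3 members at or above 5 CPM, and the highest in 13. Over all 12378 genes the 3 medians lay within 0.01 of 0 on this log2 scale. The medians were 0.12, 0.32 and -0.62 for marginal and dark cells, -0.03, 0.27 and -0.62 for bone, -0.01, 0.30 and -0.41 for oligodendrocytes and 0.30, 0.05 and -0.40 for red blood cells. They were 0.08, 0.10 and -0.22 for fibroblasts, 0.11, 0.16 and -0.26 for macrophages and 0.12, 0.03 and -0.18 for endothelium. Replicate 3 was lowest in each of these 7 lists, and also in that of inner phalangeal and border cells (0.03, 0.07 and -0.23), which are epithelial. For hair cell identity genes the medians were -0.08, -0.00 and 0.10, for inner hair cells -0.04, -0.02 and 0.09, for transduction genes -0.08, 0.02 and 0.06 and for the tectorial membrane -0.03, -0.04 and 0.08, each highest in replicate 3. Neuronal genes were highest there as well (-0.05, -0.02 and 0.07). Supporting cell genes (0.04, -0.03 and -0.02) and synapse and channel genes (0.00, -0.02 and -0.00) were close to 0 in each library. The share of non-epithelial tissue in each dissection was not measured, and its part in the order of the libraries was not tested.

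**Figure D5:**
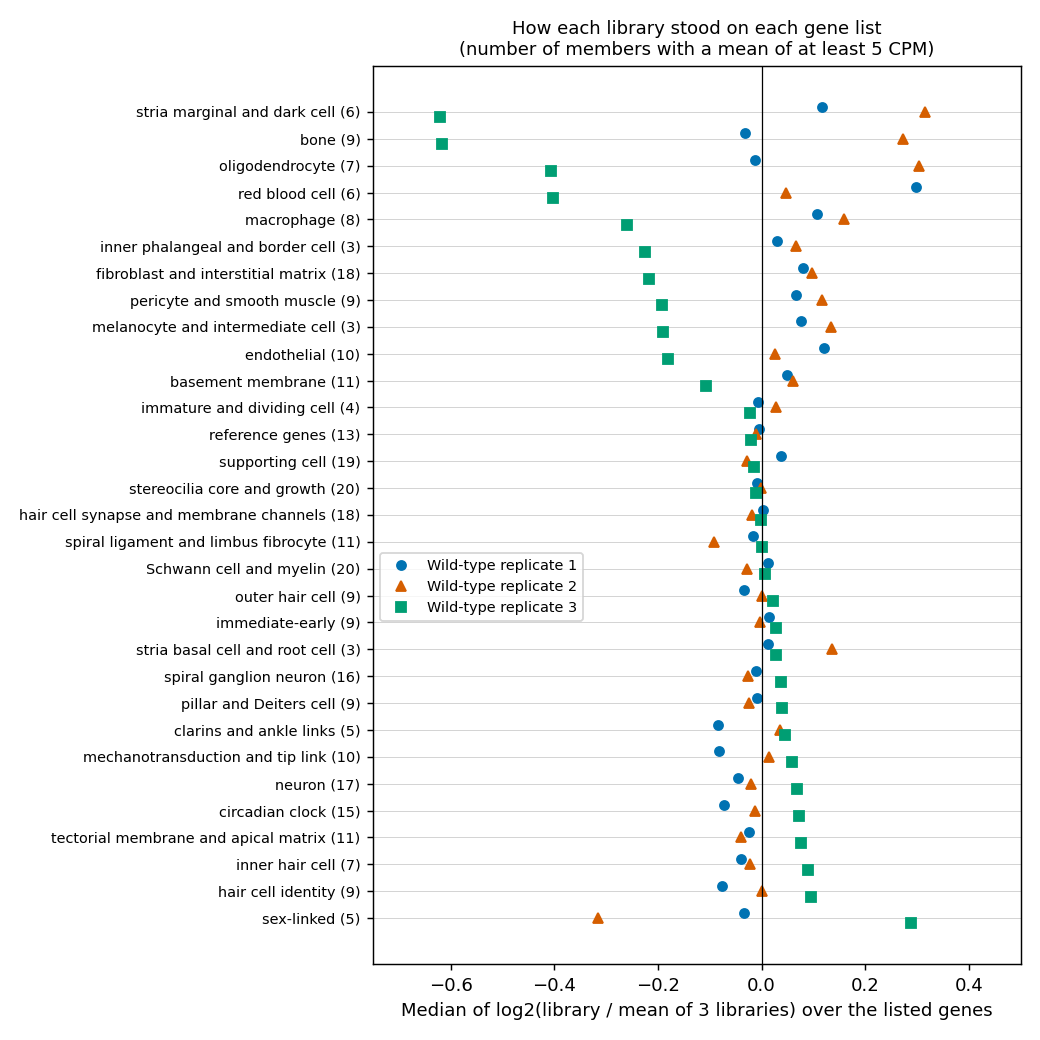
Median over the members of each list of log2 of the library over the mean of the 3 libraries, for the 31 lists with at least 3 members at or above 5 CPM. Replicate 3 is far below 0 for stria marginal cell, bone, oligodendrocyte and red blood cell genes and slightly above 0 for hair cell, tectorial membrane and neuronal genes.

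Of the 2270 genes whose mean reached 100 CPM, the 10 with the lowest ratio were Pcbp1, Eef2, Cltc, Tafa5, Slc25a3, Cyfip2, Hdgf, Gng3, Bclaf1 and Hnrnpc. Eef2, the elongation factor of translation, was at 1465, 1466 and 1463 CPM, Cltc, the clathrin heavy chain, at 715, 716 and 718 CPM, and Pcbp1, an RNA-binding protein, at 216, 215 and 216 CPM. These genes were taken as the lowest of many, and their variance lay below that of counting alone. Across abundance, the median coefficient of variation of a gene was 11.7% between 1 and 10 CPM, 4.53% between 10 and 100 CPM, 3.29% between 100 and 1000 CPM and 3.38% above 1000 CPM.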

How the data were processed

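Organ of Corti RNA of 12 mouse samples in 4 genotypes was sequenced, and the 3 wild-type libraries were used. The members and gene lists were chosen with earlier results of these data known. Per the labels and the study's methods, the authors aligned reads with STAR to GRCm38.p6 with Gencode release 24, and the deposited files hold counts per gene without a strand and for each strand. The reverse-strand counts were used. The 4 rows of reads not assigned to a gene (14.7%, 14.8% and 14.5% of the total) were left out. The genes of the mitochondrial chromosome were not analysed here.

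CPM were computed from the column total in Python 3.11.15 (pandas 2.3.3, numpy 2.4.6). Exon lengths came from Gencode release 21, in which 53238 symbols matched 1 gene. Dispersion was estimated with edgeR 4.0.16 in R 4.3.3 after its filter at 10 counts, and DESeq2 1.42.0 gave other size factors. The dispersion estimate was tested on simulated data. No test between groups was made. The genes named were the 20 highest by CPM and per kb, the 5 highest of each list with members under 1 CPM, whole gene families, the 20 widest ratios at a mean of at least 5 CPM and the 10 narrowest at 100 CPM; other genes named were chosen after their values were seen. Alternatives were other scalings, unstranded counts, another gene length, other minimum levels and each library left out. Values of some genes are not reported here.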

Additional observations from a re-analysis of the deposited data

Results flagged for a closer look

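Counts on the strand opposite to the gene, which the levels above do not use, made up 4.45%, 4.45% and 4.57% of the stranded counts in replicates 1, 2 and 3. In 357 genes these opposite-strand counts reached at least 20 CPM and exceeded the counts on the gene's own strand. The highest was Gm20721, with 1932 CPM on the opposite strand and 13.7 CPM on its own, followed by Gm11408 with 1001 and 22.2 CPM. Among the listed genes, 6 had more counts on the opposite strand than on their own. No control library for this signal was used, and its source was not tested.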

How the results depend on the processing

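No paired analysis was possible because no groups were compared. Scaling by TMM or by DESeq2 size factors moved none of the 34 list sums or medians by more than the spread between libraries. The share of counts in the 10 most abundant genes was 6.65% with unstranded counts. With protein-coding genes alone, an alternative chosen after seeing the data, the 10, 100 and 1000 most abundant genes held 4.62%, 16.0% and 42.2%. Of the 20 most abundant genes, 13 stayed among the first 20 per kb and 13 without the nuclear copies of mitochondrial transcripts, the second setting also chosen after seeing the data. The common biological coefficient of variation ranged from 4.88% to 10.4% with 1 library left out. The count of genes with a ratio of at least 2 ranged from 8 to 89 with 1 library left out, and it was 327 at a minimum mean of 1 CPM and 36 at 20 CPM. Unstranded counts moved 8 of the 34 list sums and 7 of the medians per kb. The longest transcript as gene length moved 25 medians and put the neuronal list above the fibrocyte list. Leaving out the highest member, chosen after seeing the data, moved 33 sums. With 1 library left out, list sums ranged from 0.842 times (lymphocyte, without replicate 2) to 1.26 times (neutrophil and marrow, without replicate 3) the sum over 3 libraries. The number of mice in a library is not given in the sources used here, and how much of the spread is technical was not tested, but Xist and the Y-linked genes differed in opposite directions between the libraries. Levels under the floor of 3 counts cannot be told from absence.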
